A study of Mus musculus with 9 samples.

Results

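The genes described here encode 10 inhibitory receptors, for opioids (Oprm1, Oprd1 and Oprk1), somatostatin (Sstr2), neuropeptide Y (Npy2r), GABA (Gabbr1 and Gabbr2), cannabinoids (Cnr1), adenosine (Adora1) and noradrenaline (Adra2a). They were chosen by name as receptors that couple to inhibitory G proteins, and all 10 were among the 21536 genes of the table. The cells were dissociated from trigeminal ganglia of FVB/N mice, wild type and 3 to 6 weeks old, with no treatment. They were enriched for neurons on a Percoll gradient and by depletion of glia and other non-neuronal cells. They were sequenced by Drop-seq and labelled as 9 samples. The age is that of the labels, the study's methods give a slightly narrower range for the Drop-seq runs, and each run pooled many mice of both sexes. The table holds every sample together and its barcodes name neither sample nor run. The cells were therefore read as 1 pool, and no difference below has a replicate check.

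The trigeminal ganglion holds the cell bodies of the sensory neurons that serve the face, mouth and head. Receptors of this kind activate Gi and Go proteins, which lower cyclic AMP, close voltage-gated calcium channels and open inwardly rectifying potassium channels, so that a sensory neuron fires less and releases less transmitter. They are the targets of opioid analgesics, clonidine and baclofen, and in sensory ganglia they sit both on the cell body and on the central and peripheral terminals. The GABA-B receptor is an obligate pair, in which the Gabbr1 product binds GABA and the Gabbr2 product couples to the G protein.

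Neurons were barcodes with 500 to 7500 genes, a UMI (unique molecular identifier, 1 counted transcript) of at least 3 of Tubb3, Scn9a, Snap25, Nefl, Nefm and Uchl1, and none of the epithelial gene Epcam. Of 6997 barcodes with 1000 to 190815 UMIs each, 3855 were neurons. The first matching rule placed 2415 of them in 7 groups. The Trpm8 group held 244 neurons with the cold receptor gene at 2 UMIs or more, and the Mrgprd group 379 non-peptidergic nociceptors with Mrgprd at 2 or more. The small Mrgpra3 and Nppb groups held 49 and 57 neurons, named after types known for itch. Their rules were at least 1 UMI of Mrgpra3 and 2 of Nppb, and 21 of the 49 matched more than 1 rule. A group of 320 neurons had a UMI of Cd34, a Nefh group of 450 had the large neurofilament gene at 5 UMIs or more and no Trpv1, and a Calca Trpv1 group of 916 had the CGRP gene at 5 or more with Trpv1. The other 1440 neurons fitted no rule.

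The median depth was 3406 to 5835.5 UMIs per neuron in the 7 groups and 1826.5 in the ungrouped neurons. Markers outside the rule were highest in their own group for 5 of 5 in Trpm8 and Nppb neurons, 4 of 4 in Cd34 neurons, 6 of 6 in Nefh neurons, and 4 of 5 in Mrgprd and Calca Trpv1 neurons. In the Mrgpra3 group only 2 of 4 were, so that group is named by its rule alone. Summed levels of 5 glial markers were 95.1 to 480.2 CPM (UMIs of a gene per 1000000 UMIs of the group) in the groups. In the ungrouped neurons they were 8092. Pituitary markers, counted with the hormone genes Gh and Prl, summed to 387 to 1128 against 4191, of which Gh alone gave 3609. The ungrouped neurons are therefore given only beside the groups.

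Levels are in CPM, each followed by an exact Poisson 95% interval. Intervals of shares are exact Clopper-Pearson and those of ratios exact binomial, all at 95%, and all cover counting error only. Since 3' end counting captures genes unequally, the level of a gene was compared across groups and never with the level of another gene. Where neurons of a group are split by the gene they held, only the change of that split between groups can be read. The 10 genes ranged from 44 UMIs in 38 neurons for Oprd1 to 3448 UMIs in 1744 neurons for Gabbr1. As a background, 1083 barcodes classed as glia-like, endothelial-like, red blood cell-like or pituitary-like, with a median of 1519 UMIs, were read in the same way.

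**Figure D1:**
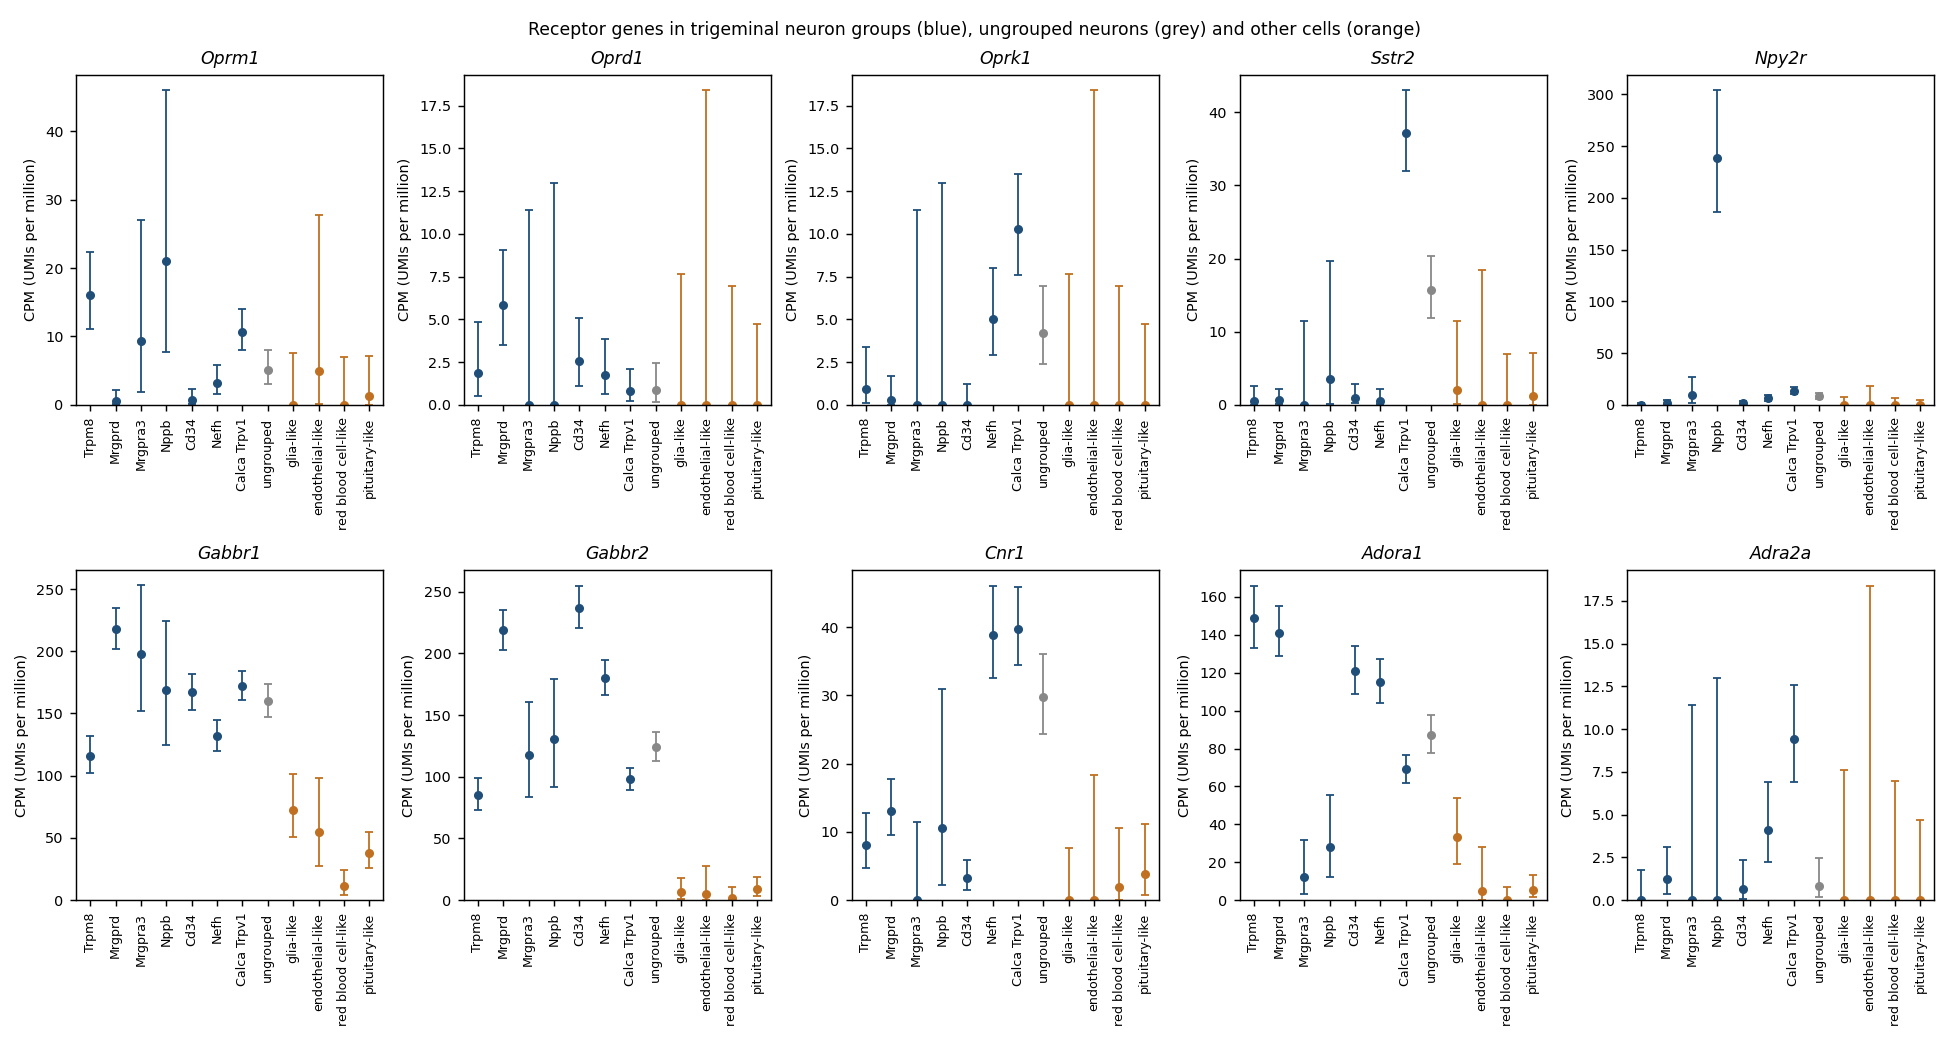
Level of each receptor gene in CPM (linear axis from 0, each panel with its own scale) in the 7 neuron groups, the ungrouped neurons and 4 classes of other cells, with exact Poisson 95% intervals. Sstr2 stood at 37.2 CPM in Calca Trpv1 neurons and at most 3.52 in the other groups, Npy2r at 239 in Nppb neurons, while Gabbr1 lay between 116 and 218 in all 7.

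The 3 opioid receptor genes were highest in different groups. Oprm1, which encodes the mu receptor through which morphine acts, lies on chromosome 10 of GRCm38 (mm10), from 6758506 to 7038198 on the plus strand. It measured 21.1 CPM (7.75 to 46.0) in Nppb neurons, from only 6 UMIs, 16.0 CPM (11.1 to 22.4) in Trpm8 neurons and 10.7 CPM (7.97 to 14) in Calca Trpv1 neurons. The level was 9.28 CPM (1.91 to 27.1) in Mrgpra3 neurons, 3.24 (1.62 to 5.79) in Nefh neurons, 0.646 (0.0783 to 2.33) in Cd34 neurons and 0.611 (0.0740 to 2.21) in Mrgprd neurons. The first 4 of these overlapped one another, as did the last pair, and the step from Nefh to Cd34 neurons was 5.01-fold (1.09 to 46.5). In Trpm8 neurons, which sense cooling, Oprm1 was 3.21-fold (2.08 to 4.88) above the other groups together, and 12.3% of them (8.45 to 17.1) held a UMI against 0.185% of the background barcodes, at medians of 5671 and 1519 UMIs. Thinned to 1000 UMIs per cell, the shares were 1.23% (3 neurons) and 0.0923%, and Trpm8 neurons, at 12.3 CPM, were no longer above Nefh neurons at 13.3 CPM and 1.33% or Mrgpra3 neurons at 20.4 CPM. Of the 244 Trpm8 neurons, 149 also matched a later rule, and Oprm1 was at 13.9 CPM without them. With looser group thresholds the Nppb level fell to 9.0 CPM, below Trpm8 neurons at 15.1. Its exons overlap those of Ipcef1 on the opposite strand, so reads could not be assigned with certainty if counting ignored strand.

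Oprd1 encodes the delta receptor, which binds enkephalins, and lies on chromosome 4 from 132110726 to 132144486 on the minus strand. It was highest in Mrgprd neurons at 5.81 CPM (3.50 to 9.07), 19 UMIs in 15 neurons. Without neurons that matched more than 1 rule, 5 of these UMIs were left and the level was 3.12 CPM. Cd34 neurons followed at 2.58 CPM (1.12 to 5.09), Trpm8 neurons at 1.89 (0.514 to 4.83), Nefh neurons at 1.77 (0.648 to 3.85) and Calca Trpv1 neurons at 0.821 (0.224 to 2.10). Neighbours in this order overlapped, but Mrgprd neurons were 3.72-fold (1.90 to 7.20) above the other groups together. No UMI was seen in Mrgpra3 or Nppb neurons, where the intervals reached 11.4 and 13.0 CPM, nor in the background barcodes, where it reached 1.84 CPM.

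Oprk1, the gene for the kappa receptor for dynorphins, lies on chromosome 1 from 5588466 to 5606131 on the plus strand. Its level was 10.3 CPM (7.62 to 13.5) in Calca Trpv1 neurons and 5.01 CPM (2.92 to 8.01) in Nefh neurons, 2.05-fold apart (1.16 to 3.79). Elsewhere it stood at 0.943 CPM (0.114 to 3.41) in Trpm8 neurons and 0.306 CPM (0.00774 to 1.70) in Mrgprd neurons, with no UMI in Cd34, Mrgpra3 or Nppb neurons. Calca Trpv1 neurons carried 71.4% of the Oprk1 UMIs of the 7 groups and 28.1% of all their UMIs. In 320 Cd34 neurons, at a median of 5835.5 UMIs, the interval for a count of 0 ended at 1.19 CPM. In Mrgpra3 and Nppb neurons it ended at 11.4 and 13.0 CPM, above the Calca Trpv1 level, so a lower level there was not shown. Under the other settings tried, Oprk1 stayed highest in Calca Trpv1 neurons, whereas the top group changed in some of them for Oprm1 and Oprd1.

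A UMI of any opioid receptor gene was found in 220 of 3855 neurons, or 5.71% (5.0 to 6.49), and in 0.185% (0.0224 to 0.665) of the background barcodes. The share was 13.5% (9.50 to 18.5) in Trpm8, 10.5% (3.96 to 21.5) in Nppb and 9.72% (7.88 to 11.8) in Calca Trpv1 neurons. It was 6.12% in Mrgpra3, 6.00% in Nefh, 4.75% in Mrgprd and 3.12% in Cd34 neurons. This order did not hold at equal sampling. With every neuron thinned to 1000 UMIs the share over all neurons was 1.48%, and it was 2.67% in Nefh, 2.29% in Calca Trpv1, 2.04% in Mrgpra3, 1.64% in Trpm8, 0.312% in Cd34, 0.264% in Mrgprd and 0 in Nppb neurons. No order of the groups is therefore read from these shares.

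Which receptor gene was seen differed by group. Of the 33 Trpm8 neurons with any, 28 held Oprm1 alone, whereas 15 of 18 Mrgprd neurons and 8 of 10 Cd34 neurons held Oprd1 alone. Calca Trpv1 neurons split into 48 with Oprm1 alone and 37 with Oprk1 alone, and Nefh neurons into 9 with Oprm1, 6 with Oprd1 and 12 with Oprk1. Only 3 of the 220 neurons held 2 of the genes. Independent sampling at these shares would give 1.16 neurons with Oprm1 and Oprd1 where 1 was seen, and 2.05 with Oprm1 and Oprk1 where 2 were seen. The counts are thus too small to show whether the receptors avoid or share neurons.

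**Figure D2:**
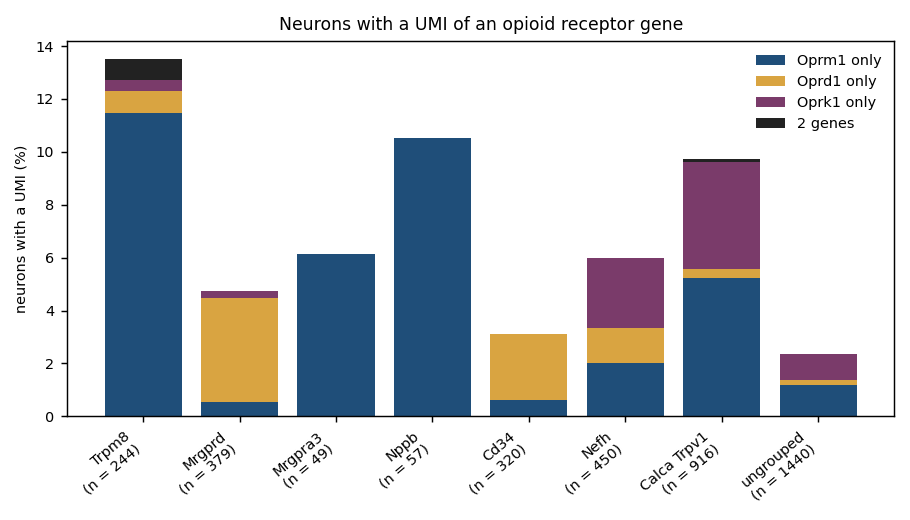
Percent of neurons with a UMI of an opioid receptor gene in each group (linear axis from 0, number of neurons under each bar), split into neurons with Oprm1, Oprd1 or Oprk1 alone and those with 2 of them. The Trpm8 bar, 13.5% high, was nearly all Oprm1, and the Mrgprd and Cd34 bars were mostly Oprd1. The Calca Trpv1 bar held both Oprm1 and Oprk1.

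Of the peptide genes listed as ligands of opioid, nociceptin, somatostatin and neuropeptide Y receptors, the 3 with most UMIs in the groups are described. Sst, the somatostatin gene and a marker of Nppb neurons, was at 1162 CPM there and at 0.616 CPM in Calca Trpv1 neurons. Pnoc, the nociceptin precursor gene, was at 13.2 CPM (8.77 to 19.1) in Trpm8 neurons and at most 0.883 CPM in the other groups. Pomc, the beta-endorphin precursor gene, was at 3.52 to 15.2 CPM in the groups, 20.7 in red blood cell-like and 3455 in pituitary-like barcodes, so its level in the 7 groups was no higher than in cells that should lack it, while the ungrouped neurons, high in pituitary markers, had 172 CPM. The enkephalin gene Penk had 16 UMIs in all grouped neurons, the dynorphin gene Pdyn 4 and Npy 0.

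Sstr2, a somatostatin receptor gene on chromosome 11 from 113619342 to 113626028 on the plus strand, had, of the 10, the largest share of its UMIs in 1 group. It measured 37.2 CPM (31.9 to 43.0) in Calca Trpv1 neurons, 181 UMIs in 116 neurons. The next level was 3.52 CPM (0.0892 to 19.6) in Nppb neurons, from 1 UMI, and Cd34, Mrgprd, Nefh and Trpm8 neurons lay between 0.471 and 0.969 CPM. Calca Trpv1 neurons thus held 95.3% of the Sstr2 UMIs of the groups, at a level 51.6-fold (26.6 to 115) that of the other groups together. A UMI was found in 12.7% of them, or 3.60% after thinning to 1000 UMIs, at which depth no neuron of another group had one. Ungrouped neurons showed the same division, with 38.8 CPM in the 419 that had Calca at 5 UMIs or more and 6.97 in the rest, 5.57-fold apart (3.10 to 10.4). The somatostatin gene and this receptor gene were therefore highest in different groups, Nppb and Calca Trpv1 neurons.

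Npy2r encodes the Y2 receptor for neuropeptide Y, a presynaptic receptor in sensory neurons, and lies on chromosome 3 from 82538383 to 82548084 on the minus strand. Nppb neurons had 239 CPM (186 to 304), with a UMI in 32 of 57 neurons, or 56.1%. The level was 131 CPM with looser group thresholds and 330.1 without neurons matching more than 1 rule, and Nppb neurons stayed the highest in both. Calca Trpv1 neurons had 13.6 CPM (10.5 to 17.2), Mrgpra3 neurons 9.28 (1.91 to 27.1), Nefh neurons 6.48 (4.06 to 9.81) and Cd34 neurons 1.29 (0.352 to 3.31). The step between the first 2 was 17.7-fold (12.4 to 25.2), and below it Mrgpra3 neurons overlapped both Calca Trpv1 and Nefh neurons, which did not overlap each other. In Mrgprd neurons the 2.14 CPM (0.860 to 4.41) came from 7 UMIs in 1 neuron, and Trpm8 neurons had none, with an interval up to 1.74 CPM. Without the Nppb neuron with most Npy2r UMIs the level there was 218 CPM. After thinning, 21.1% of Nppb neurons still had a UMI. The gene for the other main receptor, Npy1r, had another distribution, with 64.5 CPM (57.5 to 72.0) in Calca Trpv1, 53.3 (43.9 to 64.1) in Trpm8 and 25.9 (20.8 to 31.9) in Nefh neurons and no UMI in Nppb or Mrgprd neurons.

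Adra2a, the gene for the alpha-2A adrenergic receptor on which clonidine acts, lies on chromosome 19 from 54044151 to 54048982 on the plus strand. It was highest in Calca Trpv1 neurons at 9.45 CPM (6.92 to 12.6), followed by Nefh neurons at 4.12 (2.25 to 6.92), 2.29-fold lower (1.24 to 4.51). Mrgprd and Cd34 neurons lay at 1.22 (0.333 to 3.13) and 0.646 CPM (0.0783 to 2.33), and Trpm8, Mrgpra3 and Nppb neurons had no UMI. The intervals ended at 1.74 CPM in Trpm8, 11.4 in Mrgpra3 and 13.0 in Nppb neurons. Mrgpra3 and Nppb neurons could therefore not be placed below Calca Trpv1 neurons. The related gene Adra2c had the reverse order in the leading pair, with 31.5 CPM (25.8 to 38.1) in Nefh and 18.5 CPM (14.9 to 22.7) in Calca Trpv1 neurons.

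Cnr1 encodes the CB1 cannabinoid receptor and lies on chromosome 4 from 33924593 to 33948831 on the plus strand. The level was 39.8 CPM (34.4 to 45.9) in Calca Trpv1 neurons and 38.9 CPM (32.5 to 46.1) in Nefh neurons, which differed by less than the counting error. Mrgprd neurons had 13.1 CPM (9.51 to 17.7), Nppb neurons 10.6 (2.18 to 30.9), Trpm8 neurons 8.01 (4.67 to 12.8) and Cd34 neurons 3.23 (1.55 to 5.94), with no UMI in Mrgpra3 neurons. The Nppb level rested on 3 UMIs and was 31.5 CPM with looser group thresholds. Without neurons matching more than 1 rule the Trpm8 and Cd34 levels were 17.8 and 0.569 CPM, and with stricter thresholds 2.99 and 0.878, so the order of these low groups is not firm. The step below Nefh neurons was 2.96-fold (2.08 to 4.28). A single Nefh neuron gave 14 of the 132 UMIs, and without it the group was at 35.0 CPM. Mgll and Faah, whose products break down endocannabinoids, were low in Mrgprd neurons, Mgll at 60.2 CPM against 237 in Calca Trpv1 neurons and Faah at 6.42 against 18.3. Cnrip1, which encodes a CB1-binding protein, varied less, from 70.4 to 131 CPM.

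The GABA-B subunit genes were found in all groups, but in unequal proportion. Gabbr1 (chromosome 17, 37045966 to 37075067, plus strand) ranged from 218 CPM (202 to 235) in Mrgprd neurons down to 132 (120.0 to 145) in Nefh and 116 (102 to 132) in Trpm8 neurons, and the 4 groups between were at 167 to 198 CPM. Gabbr2 (chromosome 4, 46662305 to 46991873, minus strand) was at 237 CPM (221 to 255) in Cd34, 219 (203 to 235) in Mrgprd and 180.2 (166 to 195) in Nefh neurons. It was lower in Nppb neurons at 130.3 CPM (91.7 to 179.6), Mrgpra3 neurons at 118 (83.2 to 161), Calca Trpv1 neurons at 97.9 (89.4 to 107) and Trpm8 neurons at 85.3 (73.4 to 98.7). Gabbr2 thus spanned more of a range than Gabbr1 at full depth. Thinned to 1000 UMIs, Gabbr1 was highest in Mrgpra3 neurons at 306 CPM, with a UMI in 12 neurons, against 208 CPM in Mrgprd neurons.

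Because capture of a gene is shared by all groups, the ratio of Gabbr2 to Gabbr1 UMIs can be compared between them, though its size cannot be read as a ratio of molecules. It was 1.42 (1.27 to 1.59) in Cd34 and 1.37 (1.21 to 1.55) in Nefh neurons and 1.0 (0.904 to 1.12) in Mrgprd neurons. Nppb, Trpm8 and Mrgpra3 neurons had 0.771 (0.488 to 1.21), 0.733 (0.602 to 0.891) and 0.594 (0.387 to 0.901), and Calca Trpv1 neurons 0.569 (0.507 to 0.637). The Cd34 and Nefh intervals did not overlap that of the Calca Trpv1 neurons. Kctd8, the most counted of the 3 genes for auxiliary GABA-B subunits that were read, varied little, at 102 to 151 CPM.

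**Figure D3:**
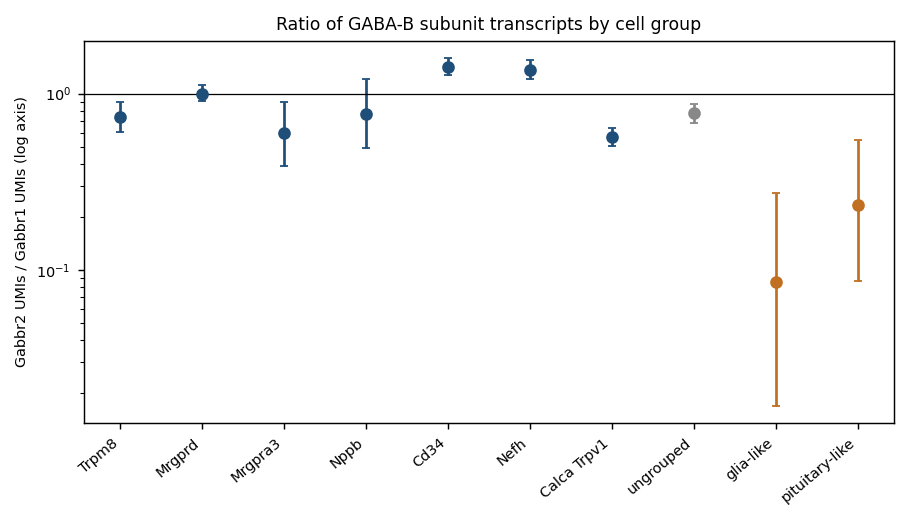
Ratio of Gabbr2 to Gabbr1 UMIs (log axis, line at equal counts) in the neuron groups, the ungrouped neurons and glia-like and pituitary-like cells, with exact binomial 95% intervals. Cd34 and Nefh neurons lay above the line at 1.42 and 1.37, Calca Trpv1 neurons below it at 0.569, and glia-like cells far below at 0.0857.

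Adora1, the gene for the adenosine A1 receptor, lies on chromosome 1 from 134199223 to 134235431 on the minus strand, and its exons overlap those of Mybph on the opposite strand. It was at 149 CPM (133 to 166) in Trpm8, 141 (129 to 155) in Mrgprd, 121 (109 to 134) in Cd34 and 115 (104 to 127) in Nefh neurons, a series in which the intervals of each neighbouring pair overlapped. Calca Trpv1 neurons were lower at 69.0 CPM (61.8 to 76.8). At these thresholds Nppb and Mrgpra3 neurons were the lowest at 28.2 (12.2 to 55.5) and 12.4 CPM (3.37 to 31.7), from 8 and 4 UMIs. Without the Nefh neuron that held 30 Adora1 UMIs the Nefh level was 107 CPM. Enzymes that make extracellular adenosine from AMP had their own pattern, with Acpp at 814 CPM in Mrgpra3, 749 in Mrgprd and 38.0 in Calca Trpv1 neurons, and Nt5e at 66.9 in Nppb, 46.2 in Mrgprd and 8.01 in Calca Trpv1 neurons. The lead of Trpm8 over Mrgprd neurons depended on the setting. Trpm8 and Mrgprd neurons were at 115 and 154 CPM without neurons matching more than 1 rule, and at 123 and 153 CPM thinned to 1000 UMIs. The Adora1 levels in Nppb and Mrgpra3 neurons were also unsteady. The Nppb level was 81.0 CPM with looser group thresholds, above Calca Trpv1 neurons at 67.5, and 4.93 CPM without neurons matching more than 1 rule. The Mrgpra3 level was 32.4 CPM without those neurons and 3.21 CPM without 1 neuron that held 3 of the 4 UMIs.

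Calca Trpv1 neurons, which are small peptidergic nociceptors, were then compared with Nefh neurons, which are large and myelinated. Genes with at least 20 UMIs in both groups together were read, and 2-fold was taken as the limit. Of the 9 receptor genes that could be read (all but Oprd1), 5 were at least 2-fold higher in Calca Trpv1 neurons, against 10.8% of 11972 genes, and none was 2-fold lower, against 9.93%. These were Sstr2 at 63.1-fold (17.2 to 525), Oprm1 at 3.30-fold (1.70 to 7.01), Adra2a at 2.29-fold, Npy2r at 2.09-fold (1.27 to 3.56) and Oprk1 at 2.05-fold. Oprm1 turned to a log2 ratio of -0.29 (-1.89 to 1.45) with neurons thinned to 1000 UMIs, where 10 and 6 UMIs were left. With median-of-ratios scaling Oprk1 and Npy2r fell below the limit, which left 3. With looser group thresholds Oprk1 did, at a log2 ratio of 0.94. Sstr2 stayed past the limit there, but its log2 ratio went from 5.98 to 3.88, with 9 Nefh UMIs. The mean of per-neuron CPM left 2 higher (Sstr2 and Npy2r) and put 1 past the limit downward, with log2 ratios of 0.86 for Oprm1, 0.84 for Oprk1, 0.98 for Adra2a and -1.06 for Gabbr2. Of the other genes, Gabbr2 was 0.544-fold (0.481 to 0.614), Adora1 0.601-fold (0.518 to 0.697), Gabbr1 1.31-fold (1.16 to 1.47) and Cnr1 1.02-fold (0.817 to 1.29) the Nefh level. Thinned, 6 genes could be read, with Sstr2 past the limit upward and Gabbr2 and Adora1 downward. The median log2 ratio was 1.04 over the 9 genes and 0.07 over all genes read.

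Calca Trpv1 and Mrgprd neurons are the peptidergic and non-peptidergic nociceptors. Here 6 of the 10 receptor genes were at least 2-fold higher in Calca Trpv1 neurons, against 15.7% of 11647 genes, and 3 were at least 2-fold lower, against 8.17%. Higher were Sstr2 at 60.8-fold (16.6 to 506), Oprk1 at 33.6-fold (5.76 to 1353) from 50 UMIs against 1, Oprm1 at 17.5-fold (4.60 to 148), Adra2a at 7.73-fold (2.82 to 29.6), Npy2r at 6.33-fold (2.91 to 16.4) and Cnr1 at 3.03-fold (2.17 to 4.32). Oprd1 was lower at 0.141-fold (0.0350 to 0.426), Gabbr2 at 0.448-fold (0.398 to 0.503) and Adora1 at 0.489-fold (0.423 to 0.564). Without neurons matching more than 1 rule Oprd1 had 4 against 5 UMIs, too few to be read, and its log2 ratio of -1.93 had an interval (-4.26 to 0.29) that held no change. With looser group thresholds Adora1, at a log2 ratio of -0.99, fell short of the limit, and the log2 ratios of Oprm1, Oprk1 and Npy2r went from 4.13, 5.07 and 2.66 to 2.26, 3.58 and 1.08, from 8, 3 and 23 Mrgprd UMIs. Gabbr1 was within the limit at 0.791-fold (0.715 to 0.875). The median log2 ratio was 2.13 over the 10 genes and 0.10 over all genes read. Both comparisons use the same Calca Trpv1 neurons. Of the fibroblast markers, Dcn was at 347 CPM in these, 40 in Nefh and 7.95 in Mrgprd neurons, while Col1a1 was near absent at 0.411, 0.589 and 0 CPM, and the glial markers summed to 302, 480.2 and 144, and their part in the ratios was not tested. Thinning left only 5 of the genes countable in the second comparison, of which Sstr2 was higher and Gabbr2 and Adora1 lower. Cnr1 was then no longer 2-fold higher, at 38.2 CPM against 23.7 in Mrgprd neurons.

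**Figure D4:**
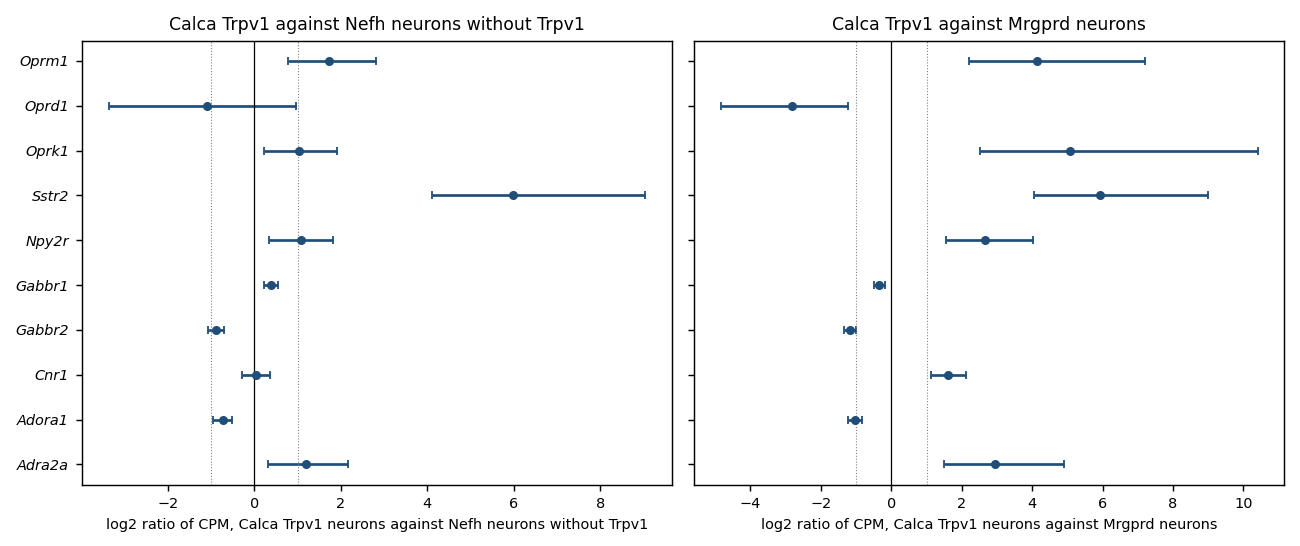
The log2 ratio of CPM for each receptor gene between Calca Trpv1 neurons and Nefh neurons (left) or Mrgprd neurons (right), with exact binomial 95% intervals and dotted lines at 2-fold. Sstr2 lay at 5.98 and 5.93, while Oprd1, Gabbr2 and Adora1 lay below 0 in both panels, with an Oprd1 interval that crossed 0 in the left one.

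Other receptor genes of the same coupling were read from a list of 27 in the table, of which 14 had enough UMIs in Calca Trpv1 and Mrgprd neurons. Of these 14, 12 were at least 2-fold higher in Calca Trpv1 neurons, against 15.7% of all genes, and 1 was lower, against 8.17%, with a median log2 ratio of 3.51. Against Nefh neurons 7 were higher and 4 lower of 15 read, against 10.8% and 9.93% of all genes. The serotonin receptor genes took different groups. Htr1b was at 53.4 CPM (47.1 to 60.3) in Calca Trpv1 neurons, Htr1d at 34.4 (28.5 to 41.3) in Nefh and 29.4 (23.7 to 36.1) in Cd34 neurons, and Htr1f at 158 CPM (116 to 212) in Nppb neurons, where Htr1a was at 49.3 (27.0 to 82.7). Sstr1, another somatostatin receptor gene, was at 11.9 CPM in Calca Trpv1 neurons, 19.5-fold (5.16 to 165) the Mrgprd level, and the galanin receptor gene Galr1 was at 13.8 CPM, 45.0-fold (7.81 to 1804). Oprl1, the gene for the nociceptin receptor, was at 25 CPM in Nefh, 17.7 in Calca Trpv1 and 13.2 in Trpm8 neurons. Further genes at least 4-fold above the Mrgprd level were Chrm2, Adra2c, Grm4 and Npy1r. Grm7 had the most UMIs of this list, at 18.7 to 81.9 CPM across the groups.

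Genes for the proteins downstream were read in the same way. Gnao1, which encodes the Go subunit, ranged from 554 CPM in Nefh neurons to 2323 in Mrgprd and 2754 in Mrgpra3 neurons, and the G protein beta genes Gnb1 and Gnb2 from 311 to 779.6 and from 213 to 455. Of 8 G protein genes read, Gnao1 and Gnb4 were at least 2-fold lower in Calca Trpv1 than in Mrgprd neurons, with Gnb4 at 167 and 677 CPM, where 8.17% of all genes were lower, and only Gnai2 was 2-fold higher than in Nefh neurons, 1 of 8 against 10.8% of all genes. The calcium channel genes Cacna1a and Cacna1b, targets of these receptors, lay within 2-fold in both comparisons. Kcnj3, which encodes an inwardly rectifying potassium channel subunit, was at 24.8 CPM in Mrgpra3, 19.4 in Nefh and 5.54 in Calca Trpv1 neurons. Of the genes for its partner subunits, Kcnj5 had no UMI in the grouped neurons, Kcnj6 was at 10 CPM (6.81 to 14.2) in Cd34 neurons and Kcnj9 at 11.3 CPM (7.25 to 16.8) in Trpm8 neurons.

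Genes that limit receptor signalling were mostly lower in Calca Trpv1 than in Mrgprd neurons. Of 12 regulators, 7 were at least 2-fold lower, against 8.17% of all genes, and 1 was higher, against 15.7%. Rgs4, Rgs7 and Rgs10, which speed the shut-off of Gi and Go proteins, were at 588 against 2155, 14.6 against 101 and 351 against 1491 CPM. The gene that was higher was Rgs9, at 17.5 against 0.306 CPM. Against Nefh neurons 2 of 12 were higher (Adrbk1 and Rgs17) and 0 lower at the same limit, against 10.8% and 9.93% of all genes, with a median log2 ratio of 0.63.

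Within the Calca Trpv1 neurons the receptor genes were not evenly spread. A subgroup of 221 with a UMI of Trpa1, Mfap5 or Gpr83 was set against 301 with Cyp1b1, Kit or Kcnk3, and neurons with both sets or neither were left out. Sstr2 was at 15.1 CPM in the first and 62.9 in the second, 0.240-fold (0.130 to 0.416), and Oprk1 at 6.05 and 15.9, 0.381-fold (0.128 to 0.951). Npy2r ran the other way at 21.2 and 6.99 CPM, 3.03-fold (1.40 to 6.96), as did Gabbr2 at 135 and 74.9, 1.80-fold (1.40 to 2.33), and Cnr1 at 49.4 and 31.1, 1.59-fold (1.05 to 2.41). The intervals of Oprm1 (0.859 to 3.74), Adra2a (0.995 to 6.47), Gabbr1 (0.998 to 1.48) and Adora1 (0.634 to 1.16) all held 1.

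**Figure D5:**
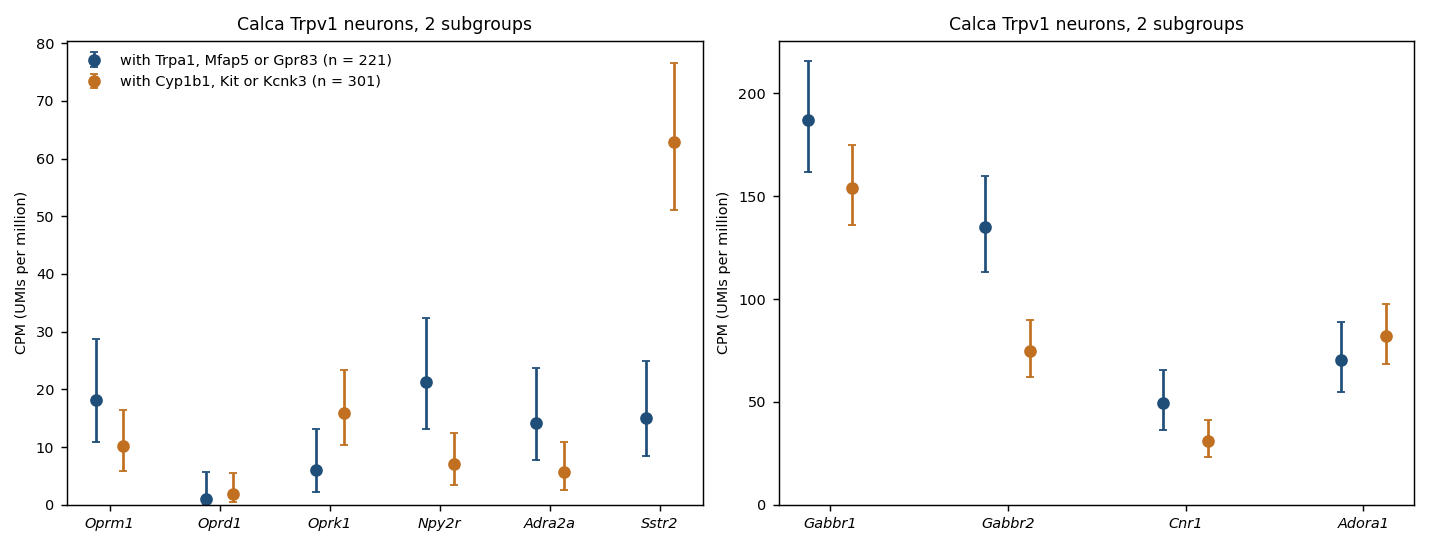
Level of each receptor gene in CPM (linear axes from 0) in 2 subgroups of Calca Trpv1 neurons, those with Trpa1, Mfap5 or Gpr83 (221 neurons) and those with Cyp1b1, Kit or Kcnk3 (301 neurons), with exact Poisson 95% intervals. Sstr2 was 62.9 CPM in the second and 15.1 in the first, and Npy2r and Gabbr2 were higher in the first.

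Pairs of receptor genes were also read within single Calca Trpv1 neurons. The 38 neurons with an Oprk1 UMI had Sstr2 at 10 CPM and the other 878 at 38.9, 0.257-fold (0.0525 to 0.763), although both genes were higher in the same subgroup. The 41 neurons with an Adra2a UMI had Npy2r at 34.7 against 11.8 CPM, 2.95-fold (1.47 to 5.48), and the 49 with an Oprm1 UMI had Npy2r at 30.3 against 12.2, 2.48-fold (1.17 to 4.79). Neurons with a Sstr2 UMI had Gabbr2 at 66.2 against 104 CPM, 0.635-fold (0.468 to 0.846). Split by the other gene, the intervals of the first 3 pairs held 1, for Adra2a by Npy2r at 2.01-fold (0.811 to 4.38), Oprm1 by Npy2r at 1.74-fold (0.707 to 3.73) and Oprk1 by Sstr2 at 0.324-fold (0.0646 to 1.01). These splits use few UMIs, 3 of Sstr2 in the Oprk1 neurons, and neurons with a UMI of the first gene were deeper, with medians of 5453.5 to 6173 UMIs. Of 54 pairs read from 6 splitting genes, 53 gave an interval and 5 of these did not hold 1, the 4 above and Cnr1 split by Npy2r at 1.61-fold (1.04 to 2.42). No adjustment was made for this number.

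Trpm8 and Nefh neurons were divided as well. Trpm8 neurons with Ociad2 or Cpne9 (105 neurons) had Adora1 at 184 CPM against 74.0 in the 51 with Ndrg1 or Angpt4, 2.48-fold (1.68 to 3.79). Oprm1 was lower in the former, at 12 against 29.6 CPM, from 11 and 12 UMIs, 0.404-fold with an interval (0.161 to 1.0) that ended at 1. In the Nefh group nearly all Npy2r, 20 of 22 UMIs, lay in neurons with Calca and without Ntrk2, at 15.5 CPM. Neurons with Ntrk2 and no Calca had no Npy2r UMI, but more Cnr1, at 57.2 against 25.5 CPM, and more Gabbr2, at 234 against 144. For Cnr1 the Calca neurons were at 0.446-fold (0.266 to 0.750) of the Ntrk2 neurons, and for Gabbr2 at 0.614-fold (0.489 to 0.774). In Mrgprd neurons split by Otoa, Prkcq or Mrgprb5 against Agtr1a or Mrgpra1, the ratios of Gabbr1, Gabbr2, Cnr1 and Adora1 all had intervals that held 1.

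Outside neurons, Gabbr1 and Adora1 were the receptor genes with a clear level. Gabbr1 was at 54.9 CPM (27.4 to 98.2) in endothelial-like and 38.2 CPM (25.8 to 54.5) in pituitary-like cells. Both intervals overlapped that of glia-like cells. Glia-like cells had Gabbr1 at 72.5 CPM (50.5 to 101) and Adora1 at 33.2 CPM (19.0 to 53.8), against 11.3 (4.14 to 24.6) and 0 (0 to 6.94) in red blood cell-like cells of similar depth. Gabbr2 was at 6.22 CPM (1.28 to 18.2) in glia-like cells and 1.88 (0.0476 to 10.5) in red blood cell-like cells, which overlapped. The Gabbr2 to Gabbr1 ratio in glia-like cells was 0.0857 (0.0169 to 0.272), from 3 and 35 UMIs, below that of every neuron group. In pituitary-like cells it was 0.233 (0.0865 to 0.542). Oprd1, Oprk1, Npy2r and Adra2a had no UMI in the 1083 background barcodes, where the exact interval of the share with a UMI reached 0.340% at their median of 1519 UMIs.

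Genes with a like pattern over the 7 groups were read from Pearson r of log2(CPM + 10), among genes with at least 300 UMIs, as a description over 7 points that share libraries and depth. The gene most like Sstr2 was Aldh1a3 (r = 0.974), a retinaldehyde dehydrogenase gene at 105 CPM in Calca Trpv1 neurons and at most 17.6 elsewhere. For Oprk1 the 3 nearest included the chemokine gene Ccl2 (r = 0.957), at 94.9 CPM in Calca Trpv1 neurons. Pou4f3, a sensory transcription factor gene, was among the 3 nearest to Cnr1 (r = 0.939), at 140.4 CPM in Nefh and 126 in Calca Trpv1 neurons. Mgst3 was among those for Adora1 (r = 0.984), from 71.2 CPM in Mrgpra3 to 564 in Trpm8 neurons, and Prmt8 among those for Oprd1 (r = 0.964), at 121 CPM in Mrgprd neurons. The gene nearest to Npy2r was Acsl1 (r = 0.978), at 91.6 CPM in Nppb and 23.6 to 42.1 in the other neurons, a far smaller range than that of Npy2r. With Oprm1, Gabbr1 and Gabbr2 the nearest were Gtpbp4, Enpp4 and Psmc1 (r = 0.965, 0.988 and 0.958), and r takes no account of how far each gene varied.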

How the data were processed

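Drop-seq captures polyadenylated RNA of single cells on barcoded beads and counts 3' ends. Per the labels, bcl2fastq 2.17, STAR 2.5.3a and Seurat 1.4.0.16 were used with build mm10; the strand setting of the counting is not given in the sources used here. The authors deposited 1 table of raw UMI counts per gene and barcode over all 9 samples, 30491529 UMIs in all. As 6 barcodes occur with 2 suffixes (12 columns), these may share cells or be chance repeats. Receptor genes, gene lists, markers and subgroups were chosen with earlier results of these data known. Levels are counts summed over the cells of a group, per 1000000 UMIs, so deeper cells weigh more. A group at 0 was set to 3 UMIs for counts of genes past 2-fold. Doublets were not called, and 349 neurons that matched more than 1 rule went to the first. Named beside the 10 receptor genes were the 3 most like each over the groups, and from each list the 3 with most UMIs and those at least 4-fold apart (30 UMIs or more) in either comparison; all other genes named were chosen after their values were seen. Pyy, Adora3 and Kctd12 were not analysed here. A further filter on neurons and a similar gene are not reported here. Positions are from GENCODE for GRCm38. The code was tested on simulated data. Python 3.11.15, NumPy 2.4.6 and SciPy 1.17.1 were used.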

Additional observations from a re-analysis of the deposited data

How the results depend on the processing

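Each of the 20 receptor ratios was recomputed under 9 alternatives, 1 of them (leaving out the neuron with most UMIs of the gene in each group) chosen after seeing the data. Of 178 values, 162 stayed within the reported interval, 15 moved outside it and 1 turned. Oprd1 gave no value after thinning. The turned value was Oprm1 against Nefh neurons, at -0.29 on the log2 scale after thinning to 1000 UMIs. Against Nefh neurons, thinning also gave log2 ratios of 2.56 for Sstr2, 0.18 for Gabbr1, -1.25 for Gabbr2 and -1.0 for Adora1. Against Mrgprd neurons it gave 0.46 for Oprm1, 0.60 for Oprk1, 2.31 for Sstr2, -0.18 for Gabbr1, 0.69 for Cnr1 and 0.14 for Adra2a, and it lowered the share of neurons with an opioid receptor UMI to 1.48%. Groups left at 0 UMIs were set to the floor of 3, so the values for Sstr2, and for Oprm1, Oprk1 and Adra2a against Mrgprd neurons, are set by that floor. Looser group thresholds gave 3.88 for Sstr2 against Nefh and 1.08 for Npy2r against Mrgprd neurons. Without neurons matching more than 1 rule Oprk1 against Mrgprd neurons was at 2.45, at the floor. The mean of per-neuron CPM gave -1.06 for Gabbr2 against Nefh and 4.16 for Npy2r against Mrgprd neurons. For values that moved, the cause beyond fewer UMIs was not tested. Cnr1 against Nefh neurons, at 0.04, changed sign within its interval under 3 alternatives (-0.11 to -0.04). Counts of all genes past 2-fold stayed within 1.5 times. Median-of-ratios scaling moved the ratios of Calca Trpv1 neurons to other groups by at most 0.09. No paired analysis was possible because the barcodes carry no run, so leaving out a run was not possible either.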
